A study of Mus musculus with 6 samples.

Results

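The regions described here are 1321 distal ATAC-seq peaks that were found in WT and in Spen KO clone 3 and that stood higher in the clone 3 list than in the WT list. They were selected on that difference in rank. Of the 22101 clone 3 peaks on the autosomes, without a segment of chromosome 1 from 100 to 130 Mb, 15943 overlapped a WT peak by at least 1 bp, and the WT peak with the longest overlap was taken as the partner. The midpoint of 8721 of these lay over 1 kb from every transcription start site (TSS) of a coding transcript, and 479 were left out because they match a stretch of chromosome 19 that recurs in the genome (80% identity over 100 bp). This left 8242 shared distal peaks. Each peak carries a value for each of 2 technical replicates, the mean of which is called the score, and its percentile was taken within the whole list. The rank shift is the clone 3 percentile minus the WT percentile, and the members are the 1321 peaks with a rank shift of 20 or more (16.0% of the shared distal peaks). The same rule with the opposite sign gave 777 peaks, called mirror peaks, and the other 6144 shared distal peaks lay between the limits.

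The study used haploid mouse embryonic stem cells (mESCs) grown in serum with LIF, of mixed genomic background, that carry an Xist transgene switched on by doxycycline. Its 6 samples were a WT line and the Spen KO lines clone 2 and clone 3, in which Spen is deleted (described by the study as a full deletion and also as one of most of the gene), each left untreated or given doxycycline at 2 ug/ml for 48 hr. The 2 lists used here, with 22753 WT peaks and 23722 clone 3 peaks, name the line only, so their doxycycline state is not known, and clone 2 was not analysed here. Nor do the lists say whether the 2 replicate values of a list share the same doxycycline state. Clone 3 is a single clone, with 1 list per line, so loss of Spen, the history of the clone and any difference in doxycycline cannot be told apart, and no test between the lines was made. Of 7 genes that mark mESCs, Sox2, Zfp42 and Sall4 had a WT peak within 1 kb of a coding TSS, and Klf4 and Zfp42 had a clone 3 peak there. Pou5f1, Nanog and Esrrb had none in either list. Of 5 genes of other lineages, Pax6 had 2 WT peaks, and Gata6, Sox17, T and Cdx2 had none. The Zfp42 peaks stood at percentile 90.1 in WT and 90.4 in clone 3. Most of these genes thus had no promoter peak in either list, and the mESC label rests on few of them.

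Distal ATAC-seq peaks mark DNA between genes or inside introns that the Tn5 transposase can reach, and many of them are enhancers, sites of the insulator protein CTCF or transposable elements. Spen is a large RNA-binding repressor that brings corepressors with histone deacetylases to chromatin, and it is required for silencing by Xist. In mESCs, Oct4, Sox2, Klf4 and Esrrb bind enhancers of the pluripotency network, and some endogenous retroviruses and LINE elements carry sites for the same factors.

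Part of the members are copies of repeated sequence. A set of copies forms a family of 122 shared distal peaks whose best match among the elements the study names is LTRIS2, the long terminal repeat of an ERV1 retrovirus. Of these, 35 were members (28.7%) and 8 were mirror peaks (6.56%), against 16.0% and 9.43% of all shared distal peaks. The octamer ATGCAAAT, which Oct4 binds, was held by 64.8% of the family, against 5.18% of all shared distal peaks. In the family, 29.1% of peaks with the octamer and 27.9% of those without it were members. The 6 sequences are those of the family's members with the largest rank shift that hold the octamer outside exons, read from mm9 on the strand given, with the octamer in capitals. The Tmem200a and Nkain3 stretches are the same 60 bases.
Gm15319, chr8:19862905-19862964, plus strand: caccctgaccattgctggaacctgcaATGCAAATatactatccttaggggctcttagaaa
Tmem200a, chr10:25503157-25503216, minus strand: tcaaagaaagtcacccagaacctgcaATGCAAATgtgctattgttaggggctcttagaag
Nkain3, chr4:20495359-20495418, minus strand: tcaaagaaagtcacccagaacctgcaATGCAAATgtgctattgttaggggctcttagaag
Sema3d, chr5:12589604-12589663, minus strand: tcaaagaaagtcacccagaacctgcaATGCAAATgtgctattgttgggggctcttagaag
Ccng1, chr11:41037448-41037507, plus strand: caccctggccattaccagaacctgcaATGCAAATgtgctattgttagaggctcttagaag
Cdh18, chr15:22629738-22629797, minus strand: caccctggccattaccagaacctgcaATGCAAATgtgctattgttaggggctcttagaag

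Each peak is named here by the gene with the nearest coding TSS, which need not be a gene it acts on. In the Gm15319 peak, the clone 3 replicates had values of 30.6 and 27.7 and the WT replicates 17.8 and 12.2, a rank shift of 60.1. In the Cdh18 peak, inside an intron, they were 19 and 22.9 against 14.0 and 18.3, a shift of 32.9. The replicates of clone 3 were above those of WT in both.

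A second family of 59 shared distal peaks is represented by a member on chromosome 1 from 56155224 to 56156122 near Plcl1. It held 15 members (25.4%, interval 16.1 to 37.8) and no mirror peak (Wilson upper limit 6.11%). Of all shared distal peaks, 16.0% were members and 9.43% mirror peaks. Every one of the family's 300 bp windows held AAGATGGC, letters that Yy1 binds, against 2.11% of all shared distal windows. The 3 sequences are from members of the family with a large rank shift, with these letters in capitals.
Gpc5, chr14:115067115-115067174, minus strand: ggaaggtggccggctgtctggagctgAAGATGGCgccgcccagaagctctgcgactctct
Pcdh15, chr10:73227956-73228015, minus strand: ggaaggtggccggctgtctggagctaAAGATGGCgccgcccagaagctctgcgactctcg
Nefm, chr14:68895549-68895608, plus strand: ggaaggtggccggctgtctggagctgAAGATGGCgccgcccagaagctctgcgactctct
The Gpc5 and Nefm stretches are the same 60 bases. In the Gpc5 peak, 424 kb from the TSS of this glypican gene, the clone 3 replicates had 20.5 and 27.5 and the WT replicates 14.4 and 16.4, a rank shift of 47.1. The study's methods state that only uniquely mapped read pairs were kept in the main processing. They also describe a re-analysis that kept reads with several places, and the lists do not say which was used.

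The largest family, with 340 shared distal peaks, and the family with the highest share of members, with 107, are shown by 1 member each. The capitals mark the 12 bases held by the largest number of the family's members. GGCTCCACCCTA was held by 38 of the 84 members of the first family and by 0.456% of the shared distal peaks outside it. ACCCACAACACC was held by 43 of the 50 members of the second and by 0.0369% outside it. Over the whole families the shares were 34.4% and 86.9%, against 45.2% and 86.0% of their members. The families were built by sequence match and the bases picked from these members. Nothing is thus read from their excess over peaks outside.
Gm1840, chr8:5416917-5417216, plus strand: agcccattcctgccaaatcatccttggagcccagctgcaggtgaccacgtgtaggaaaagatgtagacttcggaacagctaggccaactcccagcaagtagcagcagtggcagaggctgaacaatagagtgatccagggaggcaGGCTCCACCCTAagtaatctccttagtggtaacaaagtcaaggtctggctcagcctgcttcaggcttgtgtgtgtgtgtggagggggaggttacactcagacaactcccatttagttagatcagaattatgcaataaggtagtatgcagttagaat
Nr4a2, chr2:56618075-56618374, plus strand: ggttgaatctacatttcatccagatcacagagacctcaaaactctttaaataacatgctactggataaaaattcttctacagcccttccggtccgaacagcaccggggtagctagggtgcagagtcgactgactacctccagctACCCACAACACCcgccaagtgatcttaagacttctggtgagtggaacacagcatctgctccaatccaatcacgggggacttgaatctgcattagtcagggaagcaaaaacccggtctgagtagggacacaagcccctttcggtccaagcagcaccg
In the Gm1840 peak the values were 22.1 and 37.2 in clone 3 and 17.6 and 15 in WT, a rank shift of 53.1. In the Nr4a2 peak they were 32.6 and 21.2 against 20.9 and 11.7, a shift of 47.9, and here the second clone 3 replicate stood just above the first WT replicate.

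Most members, 1053 of 1321, belonged to no family. The letters that differed most between the members and the mirror peaks in proportion were TCAAGGTCA, which Esrrb and related nuclear receptors bind. The 5 sequences are those of the members outside the families with the largest rank shift that hold these letters outside exons, with 1 copy of the letters in capitals. The Hpx stretch holds a further copy, left in lower case. Part of the Cdh18 stretch resembles part of the Gm1840 stretch of the largest family.
Satb1, chr17:51834688-51834746, plus strand: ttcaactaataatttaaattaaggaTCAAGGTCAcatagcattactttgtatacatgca
Cdh18, chr15:22016720-22016778, minus strand: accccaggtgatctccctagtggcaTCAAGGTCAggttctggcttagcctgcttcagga
Glrx, chr13:75973074-75973132, plus strand: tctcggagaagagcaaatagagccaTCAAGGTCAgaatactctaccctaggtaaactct
Magi1, chr6:93598702-93598760, plus strand: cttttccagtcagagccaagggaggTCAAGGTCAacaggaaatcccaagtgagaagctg
Hpx, chr7:112751833-112751891, minus strand: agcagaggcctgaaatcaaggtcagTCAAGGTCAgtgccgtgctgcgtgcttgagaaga
In the Satb1 peak, 47.2 kb from the TSS of this chromatin organiser, the clone 3 values were 27.3 and 23.7 and the WT values 17.0 and 13.9, a rank shift of 50.7. In the Magi1 peak they were 15.5 and 23.0 against 14.4 and 15.2, so a clone 3 replicate and a WT replicate lay close together although the shift was 33.5.

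A further 5 members in no family are shown as 300 bp around their midpoint on the plus strand, with all letters of the 12 motifs searched here in capitals. They are 3 of the 10 members with the largest rank shift, 1 of those with the highest clone 3 score and the member of largest shift near Sox2.
Pam, chr1:99969741-99970040: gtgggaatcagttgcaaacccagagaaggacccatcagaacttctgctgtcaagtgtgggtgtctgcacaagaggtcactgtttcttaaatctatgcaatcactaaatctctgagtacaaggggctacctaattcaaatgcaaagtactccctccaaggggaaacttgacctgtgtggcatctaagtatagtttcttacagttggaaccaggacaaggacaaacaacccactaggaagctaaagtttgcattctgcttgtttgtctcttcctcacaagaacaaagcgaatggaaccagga
Dlg2, chr7:97717665-97717964: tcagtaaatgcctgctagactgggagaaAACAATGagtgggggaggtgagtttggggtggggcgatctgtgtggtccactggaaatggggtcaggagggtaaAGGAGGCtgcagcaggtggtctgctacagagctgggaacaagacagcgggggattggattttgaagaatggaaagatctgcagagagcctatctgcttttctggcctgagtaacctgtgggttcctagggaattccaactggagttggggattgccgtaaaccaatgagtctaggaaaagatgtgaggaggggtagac
Foxp1, chr6:99190803-99191102: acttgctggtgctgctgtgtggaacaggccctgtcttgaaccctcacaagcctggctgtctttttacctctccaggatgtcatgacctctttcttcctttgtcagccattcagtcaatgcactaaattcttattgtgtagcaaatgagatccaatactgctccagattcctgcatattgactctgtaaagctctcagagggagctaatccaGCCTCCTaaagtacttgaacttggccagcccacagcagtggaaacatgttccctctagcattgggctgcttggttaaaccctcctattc
Cadm2, chr16:67661903-67662202: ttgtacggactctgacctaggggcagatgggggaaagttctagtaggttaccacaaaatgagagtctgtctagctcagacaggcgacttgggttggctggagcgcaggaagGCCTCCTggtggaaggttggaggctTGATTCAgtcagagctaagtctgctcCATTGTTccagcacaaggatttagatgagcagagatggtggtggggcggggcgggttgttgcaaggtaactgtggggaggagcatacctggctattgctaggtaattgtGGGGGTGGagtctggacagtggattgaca
Sox2, chr3:34694471-34694770: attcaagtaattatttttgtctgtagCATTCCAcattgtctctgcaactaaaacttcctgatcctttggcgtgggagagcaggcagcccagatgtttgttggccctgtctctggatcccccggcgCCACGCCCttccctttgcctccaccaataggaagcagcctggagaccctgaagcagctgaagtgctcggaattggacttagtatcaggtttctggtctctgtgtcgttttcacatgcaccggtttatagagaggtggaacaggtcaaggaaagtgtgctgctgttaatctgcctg
The Pam window held none of the motifs. The Dlg2 window held the Sox and CTCF core letters, the Foxp1 window the CTCF core, the Cadm2 window the Sox, Klf, CTCF core and AP-1 letters, and the Sox2 window the Klf and Tead letters.

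The member with the largest rank shift lay in an intron of Pam, which encodes the enzyme that amidates peptide hormones, on chromosome 1 from 99969614 to 99970167. Its values were 29.7 and 30.1 in clone 3 and 13.6 and 13.7 in WT, which moved it from percentile 17.9 in WT to 85.5 in clone 3, a shift of 67.7. This peak lies just before the left-out segment of chromosome 1. In the 5 Mb window that ends at the segment, 9 of 22 shared distal peaks were members, and the 18 shared promoter peaks there had a median rank shift of 6.74. The next member, on chromosome 4 from 39552032 to 39552420, lay 155 kb from the TSS of 1700009N14Rik. Its clone 3 values of 21.4 and 21.7 stood against WT values of 4.83 and 5.15, among the lowest scores of the WT list (percentile 0.0132).

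A member in an intron of Dlg2, which encodes a synaptic scaffold protein, had 28.5 and 23.9 in clone 3 and 13.8 and 12.6 in WT, a shift of 63.1. In an intron of Foxp1, a forkhead transcription factor, the values were 30.2 and 25.8 against 15.6 and 12.6, a shift of 62.3. A member 303 kb from Pcdh10, a protocadherin of cell adhesion, had 43.1 and 26.5 against 18.1 and 12.8. The other members among the 10 with the largest shift lay near Ppp2r1b, Tiam1, Vmn2r2, Cth and Slc26a7. In all 10 both clone 3 replicates were above both WT replicates, a pattern held by percentile in 28.6% of all shared distal peaks. These same values chose the 10, so nothing is read from this. Of the 10, the Ppp2r1b peak on chromosome 9, in an intron of Alg9, was repeated sequence (55.1% of the 24-base words in it had 10 or more copies in mm9), and the Vmn2r2 and Slc26a7 peaks belong to the second largest family. The peaks near Pam, Pcdh10, Dlg2, Tiam1 and Foxp1 held no such word.

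**Figure D1:**
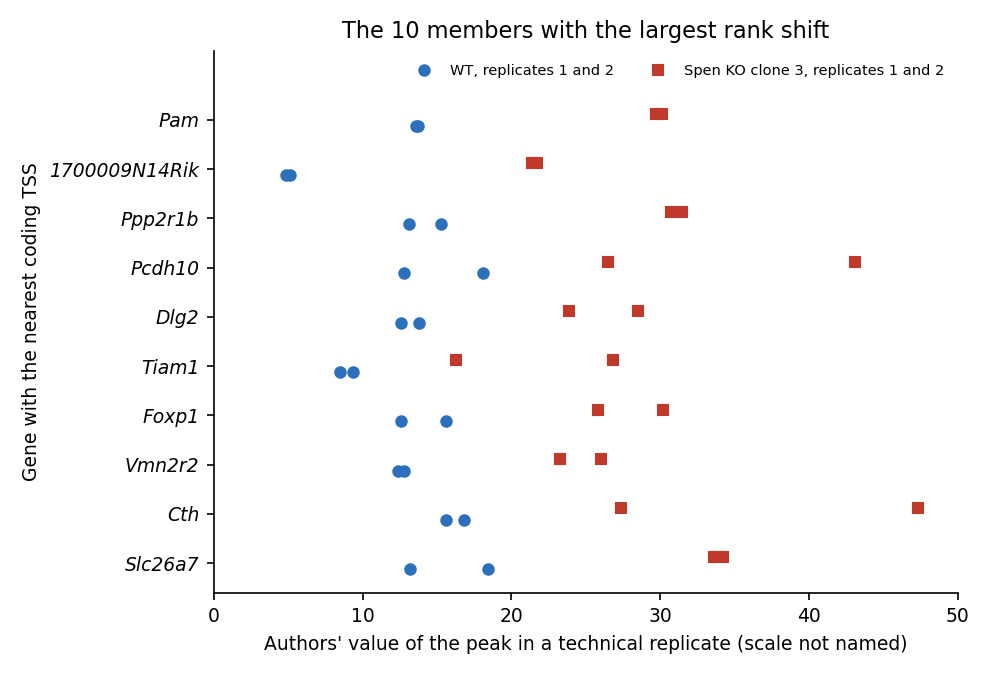
Values of both technical replicates (x axis, the authors' value, of unnamed scale) in the WT list (blue circles) and the Spen KO clone 3 list (red squares) for the 10 members with the largest rank shift, named by the gene with the nearest coding TSS (y axis). In each of the 10, which were chosen by these same values, both clone 3 values lie above both WT values. The Pam peak has 29.7 and 30.1 against 13.6 and 13.7.

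Most members stood in the upper part of the clone 3 list, short of its top. Their median score was 21.8 in clone 3 (quartiles 18.9 and 26.2) and 16.7 in WT (quartiles 14.6 and 19.1). The median percentile was 67.4 in clone 3 (quartiles 55.2 and 79.3) and 35.0 in WT, and the median shift was 28.5, up to 67.7. These values chose the members and are given as a description. The score ratio of clone 3 to WT ran from 1.12 to 4.32 with a median of 1.32, so each member was also higher in the values as deposited. The highest clone 3 score of a member was 47.9, at percentile 97.3, in a peak 514 kb from Galr1, a galanin receptor gene, on chromosome 18 from 82062231 to 82062941. Its values were 44.3 and 51.4 in clone 3 and 30.4 and 25.5 in WT. A member 40.9 kb from Cadm2, a gene of a neuronal adhesion molecule, had 49.9 and 45.5 against 22.2 and 17.2. Members among the 5 highest also lay near Insig1, Gm9008 and Olfr1245.

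**Figure D2:**
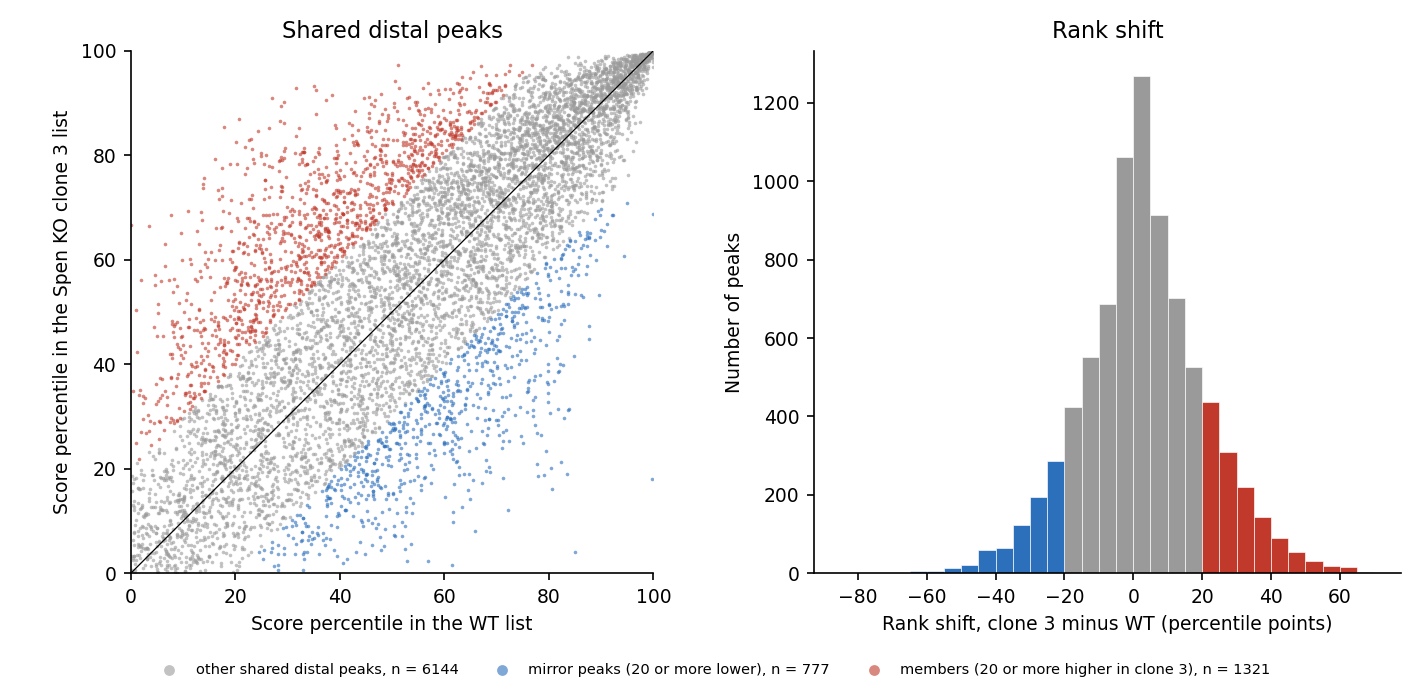
Left, score percentile of each of the 8242 shared distal peaks in the WT list (x axis) and in the Spen KO clone 3 list (y axis), with the line of equal rank. Right, number of peaks (y axis) by rank shift (x axis, percentile points, bins of 5 points). The 1321 members (red) and the 777 mirror peaks (blue) are set apart by the limit of 20, and at the top of both lists few peaks can reach it.

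The limit cuts a continuous distribution. The 3 members just inside it, near Hs1bp3, Celf3 and Zfp281, and the 3 peaks just outside, near Map3k7, Aga and Dnmt3a, all had a shift that rounds to 20. The Zfp281 peak, near the gene of a zinc finger factor of pluripotent cells, had 13.7 and 16.1 in clone 3 and 10.4 and 13.2 in WT. The Dnmt3a peak, in an intron of the gene of the de novo DNA methyltransferase, had 13.9 and 12 against 8.51 and 7.06 and is not a member.

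Among the shared distal peaks, members outnumbered mirror peaks by a ratio of 1.70 (95% interval 1.56 to 1.86, counting error only). With percentiles taken among the shared distal peaks only, so that both lists hold the same peaks, there were 1164 members and 1162 mirror peaks, a ratio of 1.00 (interval 0.924 to 1.09). Percentiles within the same peaks centre the shifts on 0, which nearly fixes this balance, so the ratio of 1.70 describes the shared distal peaks relative to the rest of each list. Shared promoter peaks, 7222 in number, moved the other way, with a median shift of -2.94 against 2.19 for the shared distal peaks. At promoters 4.54% of shared peaks reached a shift of 20 and 14.4% a shift of -20 or lower.

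Of the 1321 members, 1145 had both clone 3 replicate percentiles above both WT replicate percentiles, a pattern held by 28.6% of all shared distal peaks. Since the rule used the same values, nothing is read from this count. The replicates carry no number in the labels, and taking the first value of a list with the first of the other is arbitrary. Taken so, the shift was 20 or more in both replicates in 551 members, while 47 were lower in clone 3 by the first replicate and 45 by the second. The percentile of a shared distal peak differed between the replicates of a list with an SD of 17.2 in clone 3 and 17.8 in WT, and by 20 or more in 23.3% and 24.5% of peaks. The SD of the rank shift, which is taken between means of 2 replicates and not between single replicates, was 18.0 over the 8242 peaks. The features of the members are given with those of the mirror peaks, which meet the same limit with the opposite sign. All intervals treat peaks as separate and cover counting error only, although copies of a family share sequence.

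Members lay farther from coding TSSs than the other sets. They were a median of 42.0 kb (interval 36.8 to 47.6) away from a coding TSS, against 20.6 kb (18.5 to 22.6) for mirror peaks and 27.5 kb (26.2 to 28.7) for the other shared distal peaks. Counted to transcripts of all biotypes, the distance of the members was 23.0 kb, a value not taken for the other sets. Of the members, 401 (30.4%, interval 27.9 to 32.9) lay over 100 kb from a coding TSS, against 10.4% (8.47 to 12.8) of mirror peaks and 18.9% (17.9 to 19.9) of the others. The median number of coding gene starts within 500 kb was 6 around members, 13 around mirror peaks and 9 around the others. No coding gene start lay within 500 kb of 104 members (7.87%, interval 6.54 to 9.45), against 7 mirror peaks (0.901%, 0.437 to 1.85).

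The share of members fell with gene density. Among shared distal peaks with no coding gene start within 500 kb, 29.8% (interval 25.2 to 34.8) were members and 2.01% mirror peaks. Among those with 20 or more gene starts, 10.1% (8.71 to 11.7) were members and 15.1% (13.3 to 16.9) mirror peaks. Long noncoding RNA genes were as sparse near members. The nearest lincRNA TSS lay at a median of 800 kb from members, 369 kb from mirror peaks and 514 kb from the others. Within 1 kb of a lincRNA TSS lay 1 member (0.0757%, 0.0134 to 0.428), 23 mirror peaks (2.96%, 1.98 to 4.40) and 104 others (1.69%, 1.40 to 2.05).

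Inside genes, members lay in long ones. The share in introns of coding genes was 34.9% (interval 32.4 to 37.5), which overlaps that of the other shared distal peaks (35.9%, 34.7 to 37.1) and of mirror peaks (39.6%, 36.3 to 43.1). The host genes of the 461 intronic members had a median length of 149 kb (interval 133 to 169), against 89.1 kb (74.2 to 101) for mirror peaks and 110 kb (105 to 117) for the others. Of all members, 6.51% (5.30 to 7.97) lay in a coding gene over 500 kb long, against 2.96% (1.98 to 4.40) of mirror peaks. Exons held 51 members (3.86%, 2.95 to 5.04) and 5.53% (4.13 to 7.37) of mirror peaks.

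Members were lower in GC. In the 300 bp around the midpoint the median GC content was 50.3% (interval 50 to 50.7) in members, 54.7% (54.0 to 55) in mirror peaks and 52.3% (52.3 to 52.7) in the others. CpG dinucleotides occurred at 0.166 times the rate expected from the base composition in members, 0.270 in mirror peaks and 0.229 in the others. From 40 to 45% GC, 25% of shared distal peaks were members and 3.11% mirror peaks, while at 60% or more the shares were 9.43% and 12.2%. Under 40% GC, with 122 peaks, the share of members was lower again at 16.4% (10.9 to 24.0). At a fixed GC content the gene density still differed. From 50 to 55% GC, members had a median of 7 coding gene starts within 500 kb and mirror peaks 10, and from 45 to 50% the medians were 5 and 9. Shared promoter peaks, which did not enter the rule, had median rank shifts of -2.82 from 45 to 50% GC, -1.51 from 50 to 55% and -3.25 at 60% or more, with no steady fall. The part of GC content and of gene density in the rank shift was not tested.

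**Figure D3:**
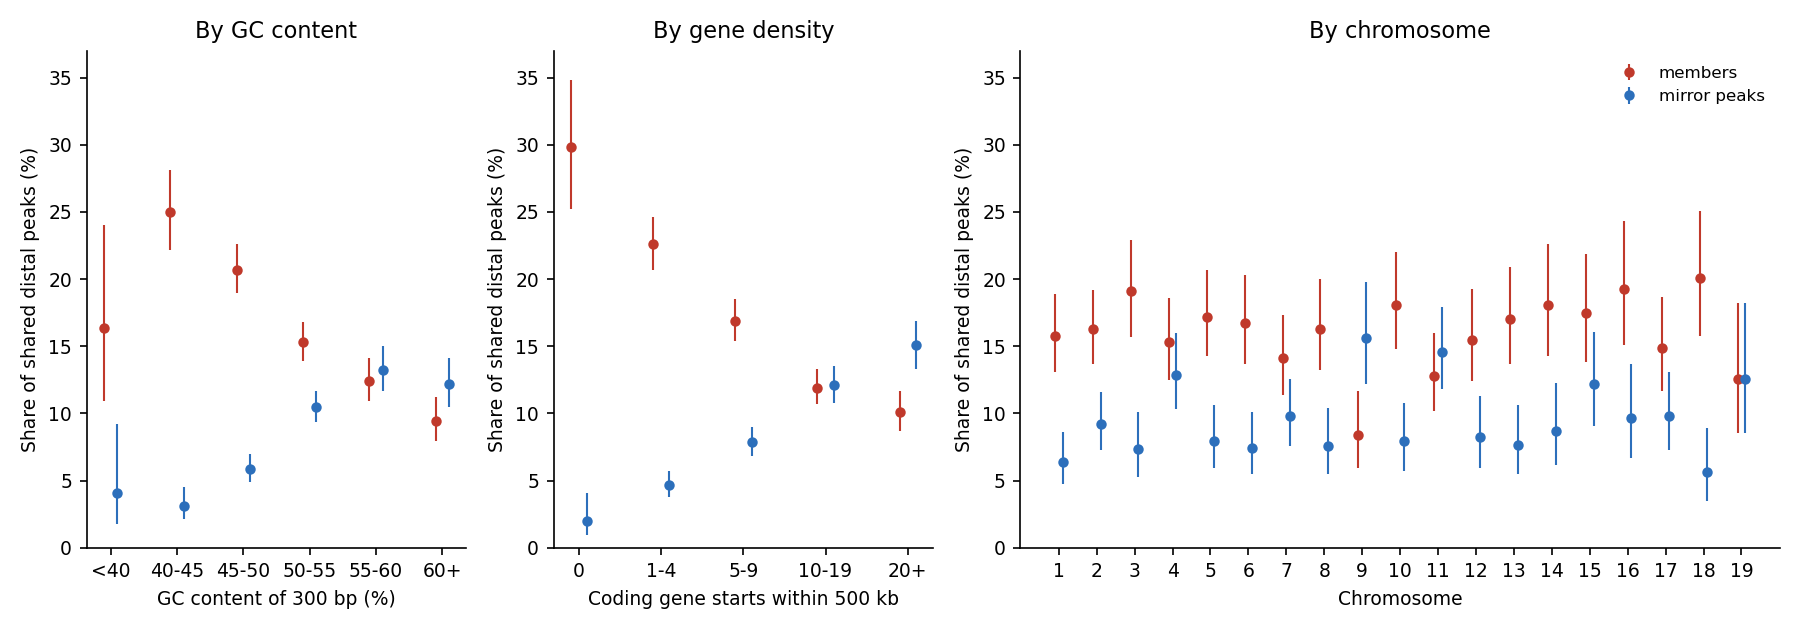
Share of shared distal peaks that were members (red) and mirror peaks (blue) by GC content of 300 bp (left), by the number of coding gene starts within 500 kb (middle) and by chromosome (right), with 95% Wilson intervals as bars. The share of members falls from 29.8% with no gene start within 500 kb to 10.1% with 20 or more, and chromosome 9 has the lowest share of members.

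Members occurred on every autosome, with shares between 8.38% and 20.1%. Chromosome 9 had the lowest share, 30 of 358 shared distal peaks (interval 5.93 to 11.7), and 56 mirror peaks. Chromosome 18 had the highest, 57 of 284 (15.8 to 25.1), and 16 mirror peaks. The median rank shift of shared promoter peaks was -5.51 on chromosome 9 and -5.62 on chromosome 11, where 66 of 514 distal peaks were members and 75 mirror peaks, and -0.433 on chromosome 18. Other chromosomes did not follow this order, as on chromosome 15, with 17.5% members and a median promoter shift of -4.32, and chromosome 12, with 15.5% and -0.625. The part of chromosome-wide differences in the members' shifts was not tested. Without chromosome 9 the ratio of members to mirror peaks was 1.79.

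In 279 windows of 5 Mb with at least 15 shared distal peaks, the median share of members was 13.3%, 19 windows held none, and 8 held 40% or more. The highest share was on chromosome 11 from 45000001 to 50000000, with 10 members of 18 and no mirror peak, beside a median shift of -3.86 over 16 promoter peaks. On chromosome 7 from 20000001 to 25000000, 8 of 15 were members. The longest run of neighbouring shared distal peaks that were all members, 6 peaks over 4040 kb, began in this window and ended just past it, among clusters of vomeronasal receptor and zinc finger genes. The peaks near Vmn1r100, Vmn1r139 and Vmn1r148 each lay 10.6 kb from the named TSS and belong to the same sequence family as the Nr4a2 peak shown above, so they are copies in a duplicated gene cluster and not separate observations. The Vmn1r100 peak had 27.3 and 31.0 in clone 3 and 19 and 18.0 in WT. The Vmn1r139 peak had 34.4 and 33.5 against 31.1 and 18.8. The Zfp93 peak, the last of the run, had 16.3 and 20.1 against 18.2 and 11.8, where the replicates overlap between the lines.

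Another member lay within 50 kb of 114 members (8.63%, interval 7.23 to 10.3), close to the share of mirror peaks (8.49%, 6.73 to 10.7) and other shared distal peaks (8.68%, 8 to 9.41) that had a member that near. These shares are not adjusted for the density of peaks around each set. A mirror peak lay within 50 kb of 64 members (4.84%, 3.81 to 6.14), and of 7.50% (6.87 to 8.19) of the others. Peaks found in clone 3 alone, which could not be members, lay within 10 kb of 91 members (6.89%, 5.64 to 8.38). Peaks found in WT alone lay that near to 86 members (6.51%, 5.30 to 7.97), and these intervals overlap. Around mirror peaks the shares were 10.8% (8.82 to 13.2) and 12.6% (10.5 to 15.1). Within 50 kb the members had a peak found in clone 3 alone in 29.8% and a peak found in WT alone in 23.0%, and the mirror peaks in 35.6% and 43.9%.

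Shared promoter peaks ranked lower in clone 3 near members too, but by less than near other peaks. The 890 promoter peaks within 100 kb of a member had a median rank shift of -1.05 (interval -2.03 to -0.439), against -4.39 (-5.69 to -3.51) for 905 within 100 kb of a mirror peak and -3.08 (-3.54 to -2.58) for 3761 near other shared distal peaks. Within 50 kb the medians were -0.483 near members and -4.23 near mirror peaks. Promoter peaks did not enter the rule, and some of them lie near more than 1 kind of peak. Promoter shifts also differed between chromosomes, as given above, and the part of the chromosome in this difference was not tested.

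Repeated sequence was more frequent among members. At least 50% of the 24-base words had 10 or more copies in mm9 in 103 members (7.80%, interval 6.47 to 9.37), 14 mirror peaks (1.80%, 1.08 to 3.00) and 278 others (4.52%, 4.03 to 5.07). A further shared distal peak with a match of at least 80% identity over 100 bp was found for 506 members (38.3%, 35.7 to 41.0), 16.5% of mirror peaks (14.0 to 19.2) and 29.9% of the others (28.7 to 31.0). The 9 families of at least 50 such peaks held 1060 shared distal peaks, of which 268 (25.3%) were members and 25 (2.36%) mirror peaks. Outside them 14.7% were members and 10.5% mirror peaks, a ratio of 1.40. Among the 1053 members in no family, the share of repeated peaks was 1.80%. The median GC content of these members was 50.3% and their median distance from a coding TSS 35.7 kb. For mirror peaks and others in no family these values were not taken, so no difference between the sets is read there.

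The families differed from each other. The family of 107 peaks represented by a member near Pclo, on chromosome 5 from 14295809 to 14296620, and shown above by the Nr4a2 peak, had 50 members (46.7%, interval 37.6 to 56.1) and no mirror peak. Its median shift was 18.2 and its median GC content 57.3%, above that of the members as a whole. Of its peaks, 13 matched L1Md_F, a young LINE element. The family of 340 peaks represented by a peak near Igf1, on chromosome 10 from 87431564 to 87432163, had 84 members (24.7%, 20.4 to 29.6), 6 mirror peaks and a median GC content of 47.0%. The family of 174 peaks near Ccdc111, on chromosome 8 from 47669630 to 47670115, had 42 members (24.1%, 18.4 to 31.0) and 6 mirror peaks. Of its peaks, 38 matched the SINE element B1_Mus2. In the LTRIS2 family, represented by a peak near Gm10360 on chromosome 6 from 70053237 to 70054299, 28.7% (21.4 to 37.3) were members. Its peaks with the octamer were members in 23 of 79 cases (29.1%, interval 20.3 to 39.9) and those without it in 12 of 43 (27.9%, interval 16.7 to 42.7), and these intervals overlap. The family near Lhx8, on chromosome 3 from 153816520 to 153816944, had 19 members of 57 (33.3%, 22.5 to 46.3), and 70.2% of its windows held the AP-1 letters TGANTCA. The families near Txlnb (10 of 81), Plk2 (4 of 64) and Ppp1r14a (9 of 56) had shares of members whose intervals hold that of peaks in no family.

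**Figure D4:**
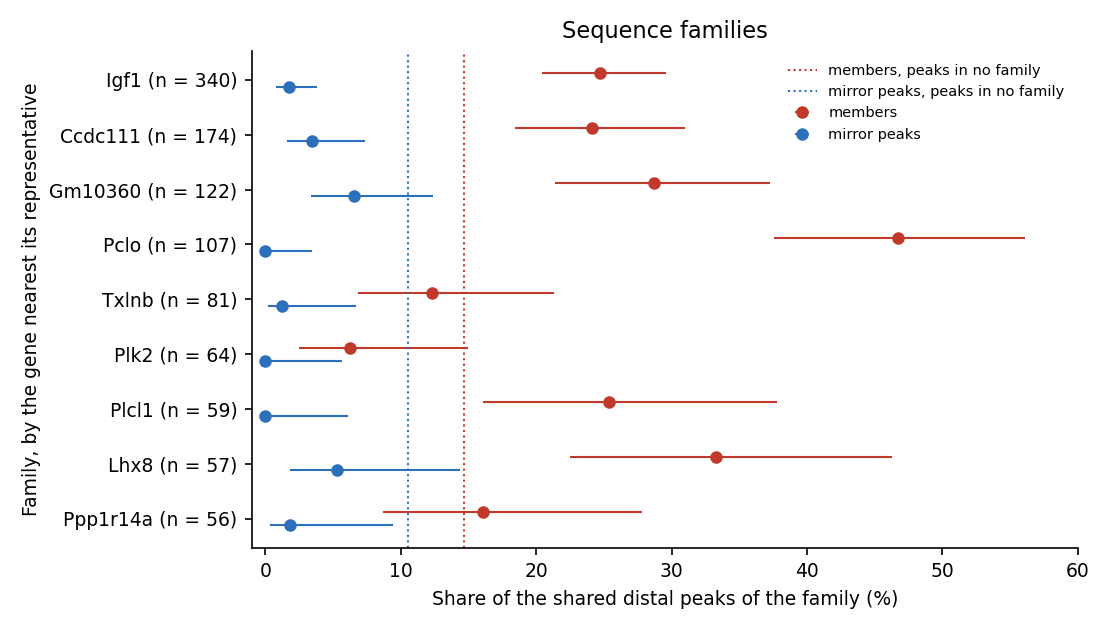
Share of members (red) and mirror peaks (blue) among the shared distal peaks of each of the 9 sequence families (y axis, named by the gene nearest the representative peak, with the number of peaks), with 95% Wilson intervals as bars. The dotted lines give the shares among peaks in no family, 14.7% and 10.5%, and the Pclo family lies farthest from them with 46.7% members and no mirror peak.

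The study's list of repeat elements, used as sequence only and held in part, matched 70 members (5.30%, interval 4.22 to 6.64), 21 mirror peaks (2.70%, 1.77 to 4.10) and 200 others (3.26%, 2.84 to 3.73). At 70% identity 130 members (9.84%, 8.35 to 11.6), 35 mirror peaks (interval 3.26 to 6.20%) and 348 others (5.66%, 5.11 to 6.27) matched. At 90% identity the shares were 1.36% (0.864 to 2.14), 1.67% (0.980 to 2.84) and 1.29% (1.03 to 1.60), so the members' higher share was not present there. LINE elements were matched by 16 members (1.21%, 0.747 to 1.96), 0 mirror peaks (Wilson upper limit 0.492%) and 29 others (0.472%, 0.329 to 0.677). At 90% identity they were matched by 3 members (0.227%, 0.0773 to 0.666), 0 mirror peaks and 9 others (0.146%, 0.0771 to 0.278), with overlapping intervals. LTRIS2 was matched by 24 members (1.82%, 1.22 to 2.69), 6 mirror peaks (0.772%, 0.354 to 1.67) and 54 others (0.879%, 0.674 to 1.14), and at 90% identity by 0.606%, 0.515% and 0.505%. ERVK elements, the class of retrovirus that the study examined, were matched by 10 members (0.757%, 0.412 to 1.39), 7 mirror peaks (0.901%, 0.437 to 1.85) and 41 others (0.667%, 0.492 to 0.904), and these intervals overlap. At 70% identity they were matched by 33 members (2.50%, 1.78 to 3.49), 15 mirror peaks (1.93%, 1.17 to 3.16) and 89 others (1.45%, 1.18 to 1.78), where the intervals of members and mirror peaks overlap as well, with the opposite order. A member 166 kb from Trp63, on chromosome 16 from 25517171 to 25517929, matched the long terminal repeat ERVB7_1-LTR_MM and had 20.6 and 24.2 in clone 3 and 14.0 and 13.2 in WT, a shift of 51.7. A member in an intron of Adarb2, with Wdr37 as the nearest coding TSS, on chromosome 13 from 8762427 to 8762961, matched MMETn-int, the internal part of an early transposon, and had 21.9 and 21.0 against 11.4 and 15.6. The other named ERVK matches were RLTR44C near Zdbf2 and RLTR13G near Hspb3 and Trhr, and in the Zdbf2 peak the first WT value of 14.4 and the second of 19.1 enclosed the second clone 3 value of 18.5.

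The 12 motifs were searched as letters on both strands of the 300 bp windows. TCAAGGTCA was held by 70 of the 8242 windows (0.849%), by 24 members (1.82%, interval 1.22 to 2.69), 2 mirror peaks (0.257%, 0.0706 to 0.934) and 44 others (0.716%, 0.534 to 0.960). From 50 to 55% GC the shares were 2.85% (1.60 to 5.03) in members, 0.379% (0.0669 to 2.11) in mirror peaks and 0.908% (0.567 to 1.45) in the others, so that at this GC content the intervals of members and mirror peaks overlap and those of members and the others do not. From 45 to 50% GC, with 2.57% (1.40 to 4.67), 0.909% (0.161 to 4.97) and 1.09% (0.661 to 1.79), all the intervals overlap. Outside the families 20 members and 2 mirror peaks held it. The octamer ATGCAAAT (5.18% of all windows) was held by 6.51% of members (5.30 to 7.97) and 3.99% of mirror peaks (2.82 to 5.61), with overlapping intervals. From 45 to 50% GC it was held by 7.97% and 7.27%, and from 50 to 55% by 3.63% and 4.92%, again with overlapping intervals. The Sox letters CATTGTT (5.68% of all) were held by 7.72% of members (6.40 to 9.29) and 5.66% of mirror peaks (4.25 to 7.52). From 45 to 50% GC these shares were 8.74% and 17.3%, and from 50 to 55% they were 9.07% and 4.55%, so the order differed with GC content. Outside the families 9.02% of members (7.44 to 10.9), 5.32% of mirror peaks (3.93 to 7.16) and 5.54% of the others (4.96 to 6.19) held them.

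GCCNNNGGC, bound by AP-2 factors (13.7% of all windows), was held by 8.25% of members (6.89 to 9.86), 20.2% of mirror peaks (17.5 to 23.2) and 14.1% of the others (13.3 to 15). From 50 to 55% GC the shares were 7.77% (5.50 to 10.9), 14.4% (10.7 to 19.1) and 12.5% (11.1 to 14.1), where the intervals of members and mirror peaks just overlap. The Tead letters CATTCCA (6.71% of all) were held by 5.22% of members (4.15 to 6.56) and 9.14% of mirror peaks (7.31 to 11.4). The CTCF core AGGNGGC (30.1% of all) was held by 27.4% (25.1 to 29.9) and 36.0% (32.7 to 39.5), and from 50 to 55% GC by 29.8% and 28.8%. The E-box CACGTG (5.25% of all) was held by 4.01% (3.08 to 5.21) and 6.95% (5.37 to 8.96). From 50 to 55% GC the intervals of members and mirror peaks overlap for the Tead letters, with 6.22% (4.21 to 9.08) and 11.4% (8.08 to 15.8), and for the E-box, with 5.96% (4 to 8.78) and 7.20% (4.66 to 11). For the Ets letters CCGGAAGT (1.33% of all), with 0.681% (0.359 to 1.29) and 1.93% (1.17 to 3.16), the intervals overlap. Among the other shared distal peaks the shares were 6.72% (6.12 to 7.38) for Tead, 29.9% (28.8 to 31.1) for the CTCF core, 5.31% (4.77 to 5.89) for the E-box and 1.40% (1.13 to 1.73) for Ets, and each interval overlaps that of the members. AAGATGGC (2.11% of all) was held by 3.18% of members (2.36 to 4.27) and 1.54% of mirror peaks (0.886 to 2.68), with overlapping intervals, and outside the families by 1.71% and 1.60%. For the Klf letters GGGNGTGG (18.9% of all), the AP-1 letters TGANTCA (11.7%) and the Stat3 letters TTCCNGGAA (1.46%), the intervals of members and mirror peaks overlapped.

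**Figure D5:**
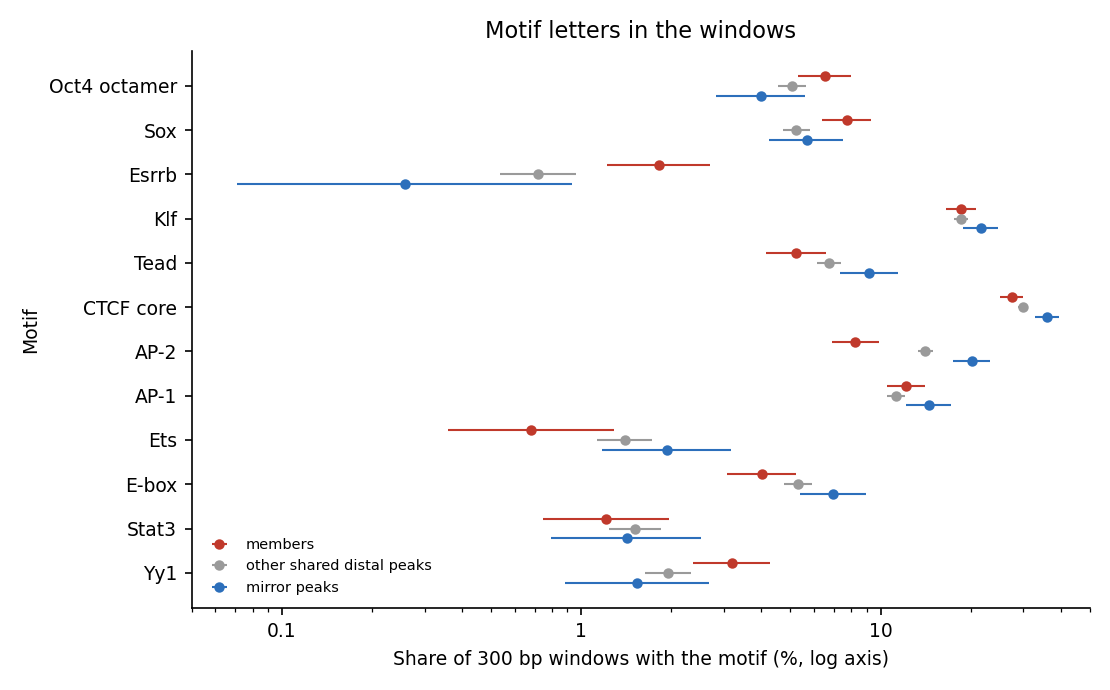
Share of 300 bp windows that hold each motif (x axis, log scale) in members (red), other shared distal peaks (grey) and mirror peaks (blue), with 95% Wilson intervals as bars. Over all GC contents, the Esrrb letters are held by 1.82% of members and 0.257% of mirror peaks, and the AP-2 letters by 8.25% and 20.2%.

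Of the 24 genes listed for core and naive pluripotency, 2 were the nearest gene of a member, Sox2 with 3 and Klf5 with 1, and these were 0.303% of members (interval 0.118 to 0.776), against 0.515% (0.200 to 1.32) of mirror peaks and 0.521% (0.369 to 0.734) of the others, intervals that overlap. The gene of the pluripotency factor Sox2 was nearest to 7 shared distal peaks, of which none was a mirror peak. The member 146 kb downstream had 23.7 and 20.9 in clone 3 and 18.8 and 14.7 in WT, a shift of 33.9. The member 18.5 kb downstream had 15.4 and 18.2 against 13.6 and 13.1. The member 95.2 kb downstream had 13.3 and 20.4 against 16.9 and 11.6, and here the replicates overlap between the lines.

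Among 18 genes of the germ layers and extraembryonic tissue, Pax6, a regulator of eye and brain, had 2 members, and Foxa2 and Gsc had 1 each, in all 0.303% of members (interval 0.118 to 0.776), against 0.129% (0.0227 to 0.725) of mirror peaks and 0.114% (0.0552 to 0.235) of the others. The Pax6 member on chromosome 2 from 105531438 to 105531809 overlaps an exon and had 19 and 24.6 in clone 3 against 17.3 and 12.4 in WT. The other, 52.4 kb upstream, had 19.8 and 16.5 against 17.2 and 12.6, which overlap. Of the 14 genes of formative and primed pluripotency, Fgf5 had 1 member (0.0757% of members, against 0.129% of mirror peaks and 0.195% of the others), with 25.1 and 36.7 against 26.9 and 18.2, which overlap. Signalling genes were nearest to 8 members (0.606%, interval 0.307 to 1.19), 0.386% (0.131 to 1.13) of mirror peaks and 0.700% (0.520 to 0.941) of the others, with 2 members each at Lef1, a transcription factor of Wnt signalling, and Myc, and 1 each at Rbpj, Dusp6, Lifr and Il6st. The Lef1 member in an intron had 15.6 and 20.7 against 10.9 and 8.32, while the one upstream had 25.4 and 16.7 against 15.4 and 18.3, which overlap. The Rbpj member, upstream of the gene of the Notch transcription factor, had 21.9 and 21.4 against 13.1 and 16.9.

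Of the 19 genes on the list of chromatin and silencing factors, 3 had a member (0.227% of members, against 0.515% of mirror peaks and 0.277% of the others). In an intron of Ncor1, which encodes a corepressor that works with histone deacetylase 3, the values were 27.0 and 24.6 in clone 3 and 17.5 and 15.5 in WT, a shift of 44.6. Upstream of Spen, 8.41 kb from its TSS, a member on chromosome 4 from 141102712 to 141103134 had 20.5 and 14.8 against 9.39 and 14.0, a shift of 37.5. The member near Ezh2, which encodes the methyltransferase of Polycomb complex PRC2, had 16.6 and 26.1 against 18.6 and 18.3, which overlap, and was repeated sequence (90.5% of its 24-base words). For all 5 lists the intervals of the shares of members, mirror peaks and other shared distal peaks overlap.

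The 1321 members were spread over 1158 nearest genes, of which 1026 had 1 member, 106 had 2, 22 had 3 and 4 had 4 or more. Spred2, an inhibitor of Ras signalling, had 5 members of 6 shared distal peaks, between 76.3 and 440 kb from its TSS and with shifts from 21.1 to 36.6. The Spred2 member with the largest shift had 21.5 and 17.3 in clone 3 and 12.7 and 15.9 in WT. The member farthest from the TSS, one of the LTRIS2 family with the octamer, had 22.1 and 22.9 against 19.9 and 18.4. Pcdh15, a protocadherin of the hair cell tip link, had 4 members of 4 shared distal peaks. Each lay within 74.4 kb of the nearest of the gene's coding TSSs. These peaks were spread along chromosome 10 from 72502159 to 73359328, with shifts from 34.7 to 44.3. The first of these, upstream of the gene, had 30.8 and 29.9 against 19.7 and 16.1, and another is the Pcdh15 copy with AAGATGGC shown above. Pde4d, a cAMP phosphodiesterase, had 4 members of 11, counted by symbol over 2 annotated genes of that name, and Csmd3, a large gene of the nervous system, had 4 of 10 and 1 mirror peak. Each of the 4 genes had a member at which replicates of the lines were close or overlapped, such as the Csmd3 peak with 22.9 and 11.6 in clone 3 and 14.9 and 12.8 in WT. These genes were named by their number of members after the values had been seen.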

How the data were processed

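ATAC-seq was measured by the study in 6 samples of 3 haploid mESC lines. Per the study's methods and the submitters' processing notes (bcl2fastq, cutadapt, Bowtie2, MACS2, bedtools, mm9), the authors trimmed the reads, placed them on mm9, dropped pairs that mapped to several places and PCR duplicates (Picard), called MACS2 peaks at a q-value of 0.01 for each of 2 technical replicates and filtered them at an Irreproducible Discovery Rate of 0.05. Tool versions are not given in the sources used here. The deposited lists give each peak's position, its length, a value for each replicate on a scale not named, and this rate. Read depth is unknown, so replicate values were used as ranks within a list. The methods also describe a re-analysis in which reads with several places were assigned to a random one, and the lists do not say which mapping they rest on.

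The members and the lists of genes were chosen with earlier results of these data known. The motifs, the sequence families, the windows, the genes with most members and the printed sequences were chosen after the values had been seen. Peaks were named by rule: the 10 members with the largest shift, the 5 with the highest clone 3 score, the 3 just inside and the 3 just outside the limit, the longest run, up to 5 with an ERVK match and up to 4 for each gene list. Annotation was the GENCODE set of mm9, midpoints were used for all distances, and families were built with BLAST 2.17.0 (80% identity, 100 bp, e-value 1e-10), each time taking the peak with the most matches left. With 1 list per line no test was made. Intervals are 95% intervals, by Wilson's method for shares and from binomial ranks for medians, and cover no more than counting error. The steps for overlap, rule, distance, copy number and intervals were first tested on simulated data. Other software was matplotlib 3.10.9, numba 0.67.0, pysam 0.24.0, scipy 1.17.1, pandas 2.3.3 and numpy 2.4.6 under Python 3.11.15. The sequence and values of 1 peak are not reported here.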

Additional observations from a re-analysis of the deposited data

Results flagged for a closer look

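Of the shared distal peaks on the X chromosome, which the rule leaves out, 71 of 430 (16.5%, interval 13.3 to 20.3) ranked 20 or more higher in clone 3 and 31 ranked 20 or more lower, with a median shift of 3.75. This share is close to the 16.0% on the autosomes. In the left-out segment of chromosome 1, 48 of 85 (56.5%, 45.9 to 66.5) ranked 20 or more higher and 1 ranked 20 or more lower, with a median shift of 23.6. Both are named because they hold peaks that meet the limit in sequence that the comparisons did not use. Neither was tested between the lines.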

How the results depend on the processing

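The number of members was 1321 and ranged from 1492 to 1636 with the percentile from a single replicate, of which 914 and 948 were among the 1321. It was 2558 with a limit of 10 and 575 with a limit of 30. The ratio of members to mirror peaks (1.70) was 1.38 to 1.56 from a single replicate, 1.00 with percentiles among shared distal peaks (which centre the shifts on 0 and so nearly fix the balance), 1.46 with a limit of 10, 1.94 with a limit of 30 and 1.40 outside the sequence families. The repeated share of members (7.80%) was 3.79% with at least 50 copies, 19.8% with at least 25% of the 24-base sequences and 1.80% outside the families. The median GC content was 49.3% over whole peaks. The median TSS distance (42.0 kb) was 23.0 kb for transcripts of all biotypes and 35.7 kb outside the families. The median length ratio of clone 3 to WT peaks (1.02) was 1.04 with a limit of 30. A peak found in clone 3 alone lay within 5 kb of 3.56% and within 50 kb of 29.8% of members, and another member within 25 kb of 5.98% and within 100 kb of 14.9%. A named repeat element was matched by 9.84% at 70% identity and 1.36% at 90%. Beyond the changes that a wider or narrower limit makes by construction, the cause was not tested. No paired analysis was possible because the labels give no replicate numbers and no result comes from a test, and leaving out the first or second value of each list pairs them by column order alone. The limits are 1 list per line, 2 technical replicates, an unknown doxycycline state and an unknown read depth. The families, chromosome 9, the ranking among shared distal peaks for sequence features and the shift in both replicates were chosen after seeing the data.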
